A study of Mus musculus with 12 samples.

Results

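The genes of vasopressin (Avp), oxytocin (Oxt) and the receptors Avpr1a and Oxtr were followed through 12 brain RNA libraries of wild-type CBA/N mice, an inbred laboratory strain. These 4 genes were taken by symbol from a table of 18962 genes, and they were chosen by their winter and summer FPKM in these same libraries. Their seasonal differences are therefore given below as descriptions without a test, while the comparison of the sexes and the relations between libraries were tested. Values are FPKM, in which fragment counts are divided by transcript length and library total, so that levels of different genes are compared per length.

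The libraries fell into 4 groups of 3: winter males, winter females, summer males and summer females. Winter-like rooms were lit for 8 h, dark for 16 h and held at 10 °C, summer-like rooms were lit for 16 h, dark for 8 h and held at 30 °C, and mice stayed in them for 4 weeks. Day length and temperature changed together, so their shares cannot be told apart. All brains were taken at around 13:00 with cerebellum and olfactory bulb removed, and the age of the mice was not given. The short codes that stand for sex and housing in the sample descriptions are not spelled out there, and the libraries are not said to come from separate animals. Each p-value therefore judges a difference or a relation against the spread between libraries, which may be technical in part.

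Vasopressin and oxytocin are short peptides made by large neurons of the hypothalamus and released from the posterior pituitary into the blood, where vasopressin retains water and constricts vessels and oxytocin drives milk release and labour. The same peptides act within the brain on social and affiliative behaviour, and vasopressin neurons of the suprachiasmatic nucleus, the central clock, carry its daily output. The receptors of both are coupled to Gq proteins, apart from the kidney vasopressin receptor Avpr2, which raises cyclic AMP.

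The genes of both peptides are neighbours on mouse chromosome 2 and are transcribed toward each other. In GRCm38.p6, Avp (gene identifier 11998) lay on the minus strand at positions 130580620 to 130582588, and Oxt (18429) lay on the plus strand at positions 130574519 to 130577054. Their annotated ends were 3565 bases apart, and each gene had 3 exons. The promoter windows of this pair, 250 bases before to 50 bases after the transcript start that RefSeq's table uses, are shown because the neighbouring genes differ in the letters found there. They are RefSeq sequences of GRCm38.p6 at chr2:130582539-130582838 on the minus strand for Avp and at chr2:130575919-130576218 on the plus strand for Oxt. The Avp start is the outer limit of the gene, while the Oxt start, position 130576169, lies 1650 bases inside the printed limit of its gene. Capitals mark CACGTG, the E-box bound by circadian clock proteins among others, and GGTCA or its reverse complement TGACC, the core letters of nuclear receptor response elements.
Avp promoter: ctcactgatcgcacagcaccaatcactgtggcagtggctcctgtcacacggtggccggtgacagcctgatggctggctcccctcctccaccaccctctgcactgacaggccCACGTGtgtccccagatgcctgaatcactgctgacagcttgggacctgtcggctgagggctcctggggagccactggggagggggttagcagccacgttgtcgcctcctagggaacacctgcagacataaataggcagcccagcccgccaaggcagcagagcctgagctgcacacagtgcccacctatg
Oxt promoter: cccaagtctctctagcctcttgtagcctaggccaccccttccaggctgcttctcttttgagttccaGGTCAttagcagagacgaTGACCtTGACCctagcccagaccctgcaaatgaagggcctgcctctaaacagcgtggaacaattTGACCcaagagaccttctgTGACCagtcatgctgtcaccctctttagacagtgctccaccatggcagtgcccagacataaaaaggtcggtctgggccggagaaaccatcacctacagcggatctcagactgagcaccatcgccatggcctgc
Both strands were searched, and the motifs did not overlap each other. The Avp window held 1 CACGTG, 139 bases before the start, and no GGTCA. The Oxt window held no CACGTG and 5 GGTCA, at 184, 166, 160, 102 and 83 bases before the start. CACGTG was present in 7.15% and GGTCA in 40.5% of 32851 promoter windows of the same length. A count of 5 or more GGTCA was reached in 0.0944% of the windows. The Oxtr window held 1 CACGTG, 43 bases before the start, and 2 GGTCA, counted from a start 1210 bases inside the limit of that gene, and the Avpr1a window held neither motif. A match is a run of letters and not a bound site.

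The transcripts of the peptide pair also share sequence in the part that encodes neurophysin, the carrier protein cut from each precursor. The longest identical run was 127 bases, and it is shown because a read inside it matches both genes and is placed only by its mate. It was read from the GENCODE M21 transcripts, where it starts at base 144 of the 577 bases of Avp and at base 156 of the 537 bases of Oxt.
Shared run of Avp and Oxt: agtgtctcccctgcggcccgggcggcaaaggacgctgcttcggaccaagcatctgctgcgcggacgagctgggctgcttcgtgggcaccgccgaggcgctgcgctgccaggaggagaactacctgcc
Among all stretches of 100 bases, the length of a single read with its mate left out of account, 5.86% of those in Avp and 6.39% of those in Oxt were found in the other gene. RSEM divides fragments that match both genes by estimate, so a part of each value could come from the other gene, and how large a part was not tested.

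Both peptide genes were among the better expressed genes of the table. Oxt averaged 27.7 FPKM ± 5.77 (SD over 12 libraries) and ranked 2984 of 18962 genes, and Avp averaged 25.4 FPKM ± 5.63 and ranked 3260. The receptors lay far lower. Oxtr, the only oxytocin receptor, averaged 2.42 FPKM ± 0.19, and Avpr1a, the main vasopressin receptor of the brain, averaged 0.32 FPKM ± 0.07. Avpr1b, the receptor of pituitary corticotrophs and hippocampal area CA2, lay between 0 and 0.07 FPKM and was listed at 0 in 4 libraries, and Avpr2 was listed at 0 in 11 libraries. The spread relative to the mean was 22.1% for Avp, 20.9% for Oxt, 22.8% for Avpr1a and 7.76% for Oxtr. Of the 4 genes, 3 passed the filter of 1 FPKM in at least 3 libraries that left 13071 genes for testing, and Avpr1a did not.

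**Figure D1:**
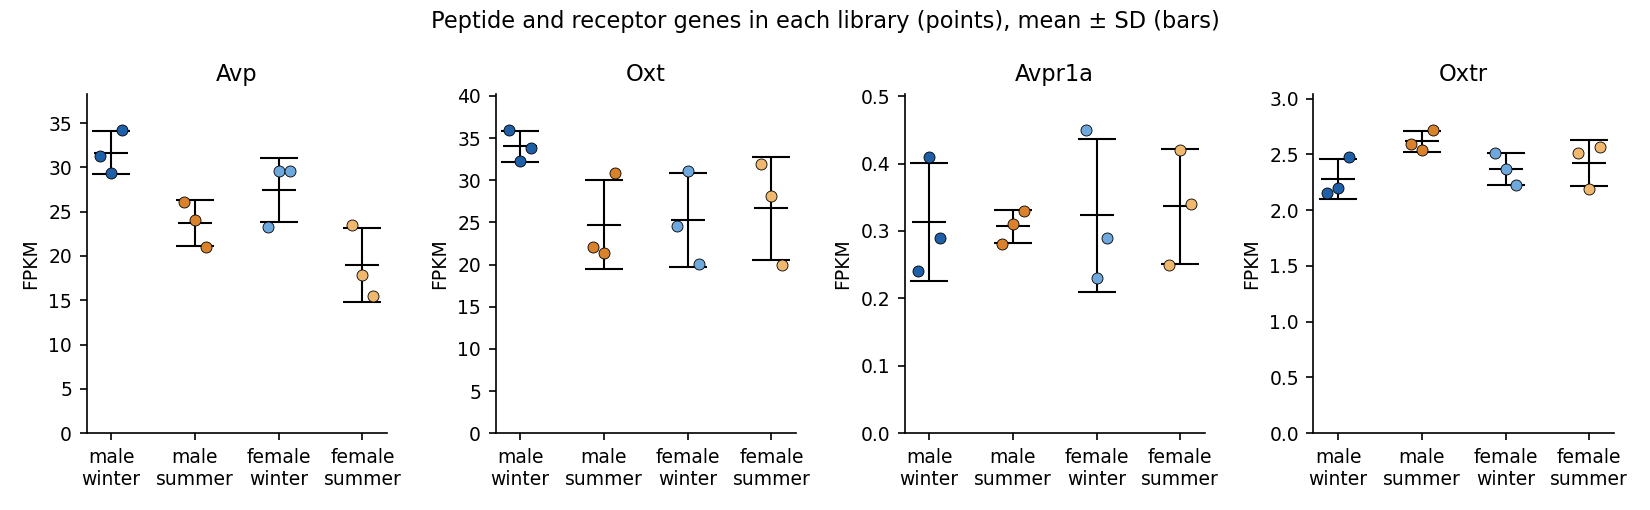
FPKM of Avp, Oxt, Avpr1a and Oxtr (vertical axes, each from 0) in the 3 libraries of each group (points), with the group mean and SD (bars). Avp was lower in summer than in winter in both sexes by its means, while the 3 winter male values of Oxt, 32.30 to 35.97 FPKM, lay above every other library.

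Libraries differed in how their values depended on base composition. The rank correlation, over 12940 genes, between the GC content of a gene's transcripts and its deviation in 1 library from its mean over all libraries ran from -0.66 to 0.55. It was lowest in female summer replicate 3 (-0.66) and female winter replicate 1 (-0.60). These 2 are called the libraries of strong GC trend below, although male winter replicate 3 reached 0.55 in the other direction. Avp transcripts were 65.7% GC and Oxt transcripts 60.5% GC, compared with a median of 49.9% over the genes ranked, so the member differences, and the named sex differences of other genes, are also given after removal of this trend within each library. Markers of cerebellum summed to 84.1 FPKM in male winter replicate 1 and to between 9.73 and 19.6 FPKM in every other library. Neuronal, glial and vessel markers were present throughout, with Snap25 of neurons at 1501 FPKM, Mbp of oligodendrocytes at 1354 FPKM and Gfap of astrocytes at 54.8 FPKM on average. The pituitary markers summed to between 1.25 and 5.88 FPKM over 9 genes, and Pou1f1, which defines several pituitary lineages, was listed at 0 in all 12 libraries.

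Avp was lower in the summer-like groups in both sexes. Winter males had 31.26, 29.41 and 34.23 FPKM, a mean of 31.6 ± 2.43 (SD, n = 3). Summer males had 26.14, 24.05 and 20.97 FPKM, a mean of 23.7 ± 2.60 (SD, n = 3). Every winter male library lay above every summer male library, with a gap of 3.27 FPKM. Winter females had 23.31, 29.56 and 29.56 FPKM, a mean of 27.5 ± 3.61 (SD, n = 3). Summer females had 23.54, 17.86 and 15.44 FPKM, a mean of 18.9 ± 4.16 (SD, n = 3). In females the groups overlapped by 0.23 FPKM, because winter replicate 1 lay just under summer replicate 1. Ordered by mean, the groups ran winter males, winter females, summer males and summer females, and each neighbouring pair in this order overlapped. The winter mean was 1.33 times the summer mean in males and 1.45 times in females. On the log2(FPKM + 1) scale, which understates the change of low genes and does so severalfold at the level of Avpr1a, the winter minus summer difference was 0.46 ± 0.09 (SE) for the sexes together, 0.40 ± 0.13 for males and 0.53 ± 0.13 for females. In bulk tissue, fewer cells making a transcript and less transcript per cell cannot be told apart.

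The same Avp difference was computed in other ways, which use the values by which the gene was chosen. After GC correction it was 0.43 ± 0.06 for the sexes together, 0.30 ± 0.08 for males and 0.56 ± 0.08 for females. All 6 corrected winter values, 4.85 to 5.01, then lay above all 6 corrected summer values, 4.28 to 4.77, on the log2 scale. Without both libraries of strong GC trend the deposited values gave 0.45 ± 0.08, and without male winter replicate 1, the library high in cerebellar markers, they gave 0.47 ± 0.10. Set against the mean log2 level of 15 hypothalamic markers in the same library, the difference was 0.45 ± 0.08. Of these markers 8 passed the filter, and the lowest hardly move on this scale. The mean could thus miss a change in hypothalamic content, which was not tested. Pmch, at 40.2 FPKM on average, and Baiap3, at 14.6 FPKM, made up most of the marker sums. The summed hypothalamic markers ran from 60.0 to 73.9 FPKM in winter males, 65.4 to 72.8 in summer males, 65.6 to 84.3 in winter females and 69.3 to 83.5 in summer females, and these ranges overlapped.

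Oxt was higher in winter than in summer in males by its means and not in females. Winter males had 35.97, 32.30 and 33.84 FPKM, a mean of 34.0 ± 1.84 (SD, n = 3). Summer males had 22.06, 21.32 and 30.84 FPKM, a mean of 24.7 ± 5.30 (SD, n = 3). The groups of males did not overlap, although summer replicate 3 came within 1.46 FPKM of the lowest winter library. Winter females had 24.59, 31.14 and 20.07 FPKM, a mean of 25.3 ± 5.57 (SD, n = 3). Summer females had 31.87, 28.16 and 19.99 FPKM, a mean of 26.7 ± 6.08 (SD, n = 3). The female groups covered nearly the same range. In the deposited values winter males were highest and overlapped no other group, and the other 3 groups overlapped each other. The share of all genes with 1 group so set apart was not computed. The winter mean was 1.38 times the summer mean in males and 0.947 times in females. The winter minus summer difference in log2(FPKM + 1) was 0.46 ± 0.17 (SE) in males and -0.07 ± 0.17 in females, and the female difference minus the male one was -0.53 ± 0.24. After GC correction the male groups overlapped, since summer replicate 3 reached 5.02 and the lowest winter library was at 5.01, and the differences were 0.40 ± 0.16 in males and -0.05 ± 0.16 in females.

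Oxtr lay within a narrow band. Winter males had 2.15, 2.20 and 2.48 FPKM, and summer males had 2.59, 2.54 and 2.72 FPKM. All 3 winter males were below all 3 summer males. Winter females had 2.51, 2.37 and 2.23 FPKM, and summer females had 2.51, 2.19 and 2.57 FPKM. The female groups overlapped almost fully, and the means ran from 2.28 in winter males through 2.37 in winter females and 2.42 in summer females to 2.62 in summer males, each overlapping its neighbour. The winter minus summer difference in log2(FPKM + 1) was -0.14 ± 0.08 (SE) in males and -0.02 ± 0.08 in females, and after GC correction it was -0.15 ± 0.07 and -0.02 ± 0.07. With a pseudocount of 0.1 the male difference was -0.19 ± 0.10.

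Avpr1a was low in every library, and never listed at 0. Winter males had 0.24, 0.41 and 0.29 FPKM, and summer males had 0.28, 0.31 and 0.33 FPKM. Winter females had 0.45, 0.23 and 0.29 FPKM, and summer females had 0.25, 0.42 and 0.34 FPKM. The 4 groups overlapped throughout, with means between 0.31 and 0.34 FPKM. The winter minus summer difference was -0.01 ± 0.05 (SE) in log2(FPKM + 1) and -0.002 ± 0.05 after GC correction. With a pseudocount of 0.1, which compresses low values less, it was -0.03 ± 0.17, so the small SE on the first scale does not show that Avpr1a was alike in the seasons.

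Read together for the seasons, 3 of the 4 genes had male groups that did not overlap, Avp and Oxt higher in winter and Oxtr lower, where 12.6% of all tested genes had such groups in either direction. None did so in females, where 4.2% of genes did, and none over both sexes, where 0.283% did. After GC correction Avp and Oxtr remained without overlap in males (12.2% of genes), Avp was so in females (6.54%), and Avp alone was so over both sexes (0.39%). These counts describe the comparison by which the genes were chosen and are read no further.

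**Figure D2:**
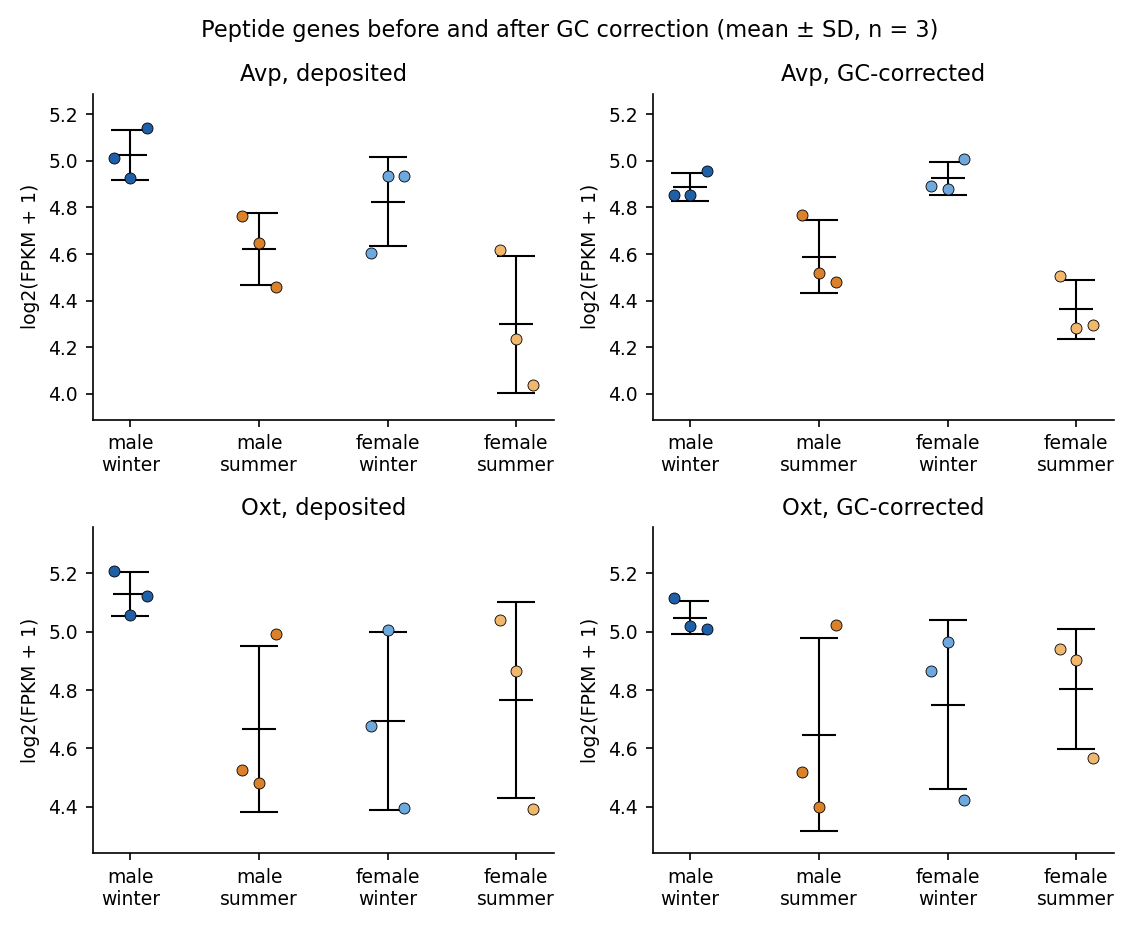
Avp and Oxt in log2(FPKM + 1) (vertical axes, not starting at 0) as deposited (left) and after removal of each library's GC trend (right), with group means and SD. The corrected Avp values of all 6 winter libraries, 4.85 to 5.01, lie above those of all 6 summer libraries, 4.28 to 4.77, while corrected Oxt overlaps between seasons in both sexes.

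The balance of the peptides was highest on the oxytocin side in summer females, a difference that was not tested. The ratio of Oxt to Avp FPKM was 1.08 ± 0.08 (SD, n = 3) in winter males, 1.07 ± 0.35 in summer males, 0.929 ± 0.22 in winter females and 1.41 ± 0.15 in summer females. Oxt exceeded Avp in 8 of 12 libraries, including 3 of 3 summer females, whose ratios ran from 1.29 to 1.58. Elsewhere 1 library passed 1.29, summer male replicate 3 at 1.47. The sum of both genes ran from 61.7 to 68.1 FPKM in winter males and from 35.4 to 60.7 FPKM in all other libraries. Winter males thus lay just above the rest, and the share of all genes with 1 group so set apart was not computed. Ratios and sums were not computed after GC correction.

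Between the sexes no tested member passed an adjusted p of 0.05 in limma's moderated test, which called 0.0612% of all tested genes (8 genes). Avp averaged 23.2 FPKM ± 5.83 (SD, n = 6) in females and 27.7 FPKM ± 4.88 (SD, n = 6) in males. Its female minus male difference in log2(FPKM + 1) was -0.26 ± 0.09 (SE), with a limma p of 0.013 and an adjusted p of 0.384. The adjusted p ran from 0.0556, without female summer replicate 1, to 0.785 over the alternatives tried. The difference was smaller with base composition removed: it was -0.09 ± 0.06 after GC correction (limma, adjusted p = 0.579) and -0.14 ± 0.08 without both libraries of strong GC trend. Both of those libraries are female. Leaving out female summer replicate 1, with a trend of 0.47, moved the difference the other way, to -0.34 ± 0.08. The part of the GC trend in the sex difference was not tested further.

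Oxt averaged 26.0 FPKM ± 5.27 (SD, n = 6) in females and 29.4 FPKM ± 6.21 (SD, n = 6) in males. The difference was -0.17 ± 0.12 (SE; limma, adjusted p = 0.575), and -0.07 after GC correction. Within winter, all 3 female libraries lay below all 3 male libraries, with means of 25.3 and 34.0 FPKM, before and after GC correction. Such separation was found in 1 of the 4 genes, where 16.6% of all tested genes were separated in either direction and 11.9% after GC correction. Within summer none of the 4 genes was separated, against 8.16% of all tested genes, and over both seasons none was, against 0.643%. Oxtr differed by -0.02 ± 0.05 (SE; limma, adjusted p = 0.893), and Avpr1a, which entered only with the filter lowered to 0.1 FPKM, by 0.02 ± 0.05 (limma, adjusted p = 0.90). After GC correction these were -0.02 ± 0.05 and 0.01 ± 0.05, and with a pseudocount of 0.1 the Avpr1a value was 0.05 ± 0.17.

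**Figure D3:**
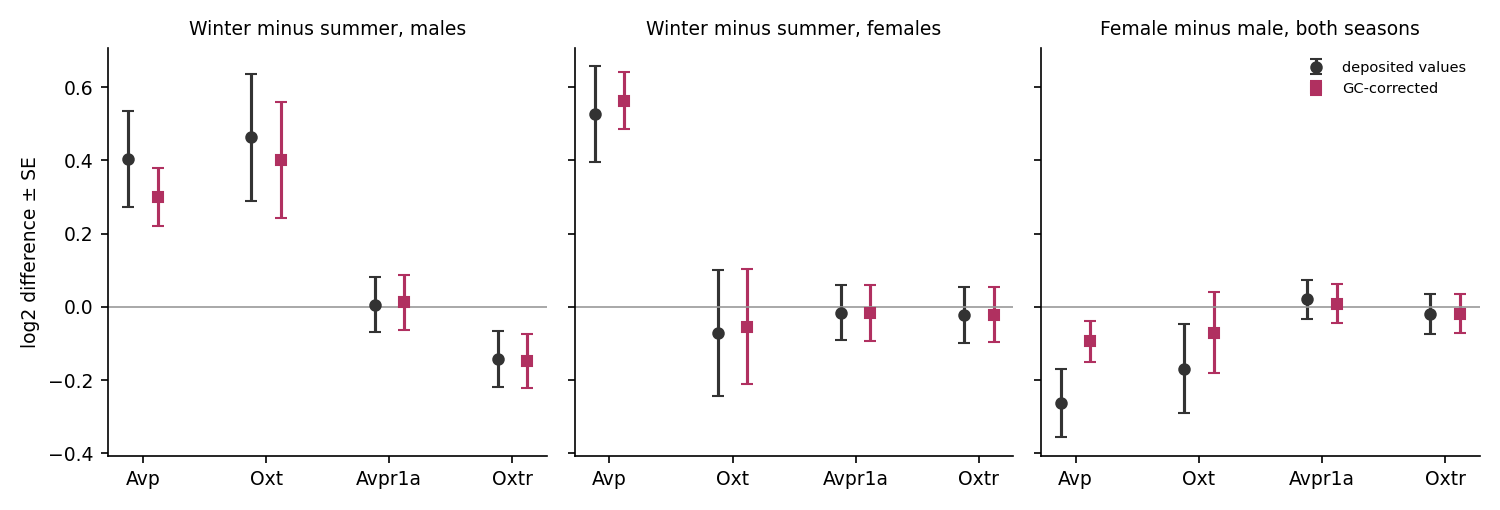
Differences in log2(FPKM + 1) with their SE for the 4 genes, winter minus summer in males (left) and in females (middle) and female minus male over both seasons (right), from deposited (circles) and GC-corrected (squares) values. Avp is higher in winter in both sexes (0.40 and 0.53), Oxt in males alone by its estimate (0.46 and -0.07), and the sex difference of Avp shrinks from -0.26 to -0.09 with the correction.

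The members were set against the GC trend of the libraries because both peptide transcripts are rich in G and C. Across the 12 libraries Avp rose with the trend (Pearson r = 0.712, Spearman rho = 0.732). Correlations over all libraries include the season values by which the members were chosen, so they are given without a test. Without the 2 libraries farthest from the median trend r was 0.603. Measured as deviations from the group means, so that season and sex are removed, r was 0.912 (exact permutation within groups, adjusted p = 0.0247). Oxt gave r = 0.536 and rho = 0.671, with r = 0.349 without the 2 farthest libraries. Within groups its r was 0.395 (exact permutation, adjusted p = 0.489). Avpr1a ran the other way, with r = -0.675, rho = -0.683 and r = -0.607 without the 2 farthest libraries. Within groups its r was -0.737 (exact permutation, adjusted p = 0.071). Avpr1a transcripts were 50.6% GC, near the median of 49.9% over the genes ranked, and Avpr1a lay between 0.23 and 0.45 FPKM. Why it followed the trend was not tested. Oxtr gave r = -0.204, rho = -0.249, and r = 0.05 without the 2 farthest. Within groups its r was -0.15 (exact permutation, adjusted p = 0.745). The trend is itself the relation of gene values to GC content, so a GC-rich transcript tends to rise with it by definition. The share of all genes that follow it as closely was not computed. The relation of the members to the trend was added after the data had been seen.

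**Figure D4:**
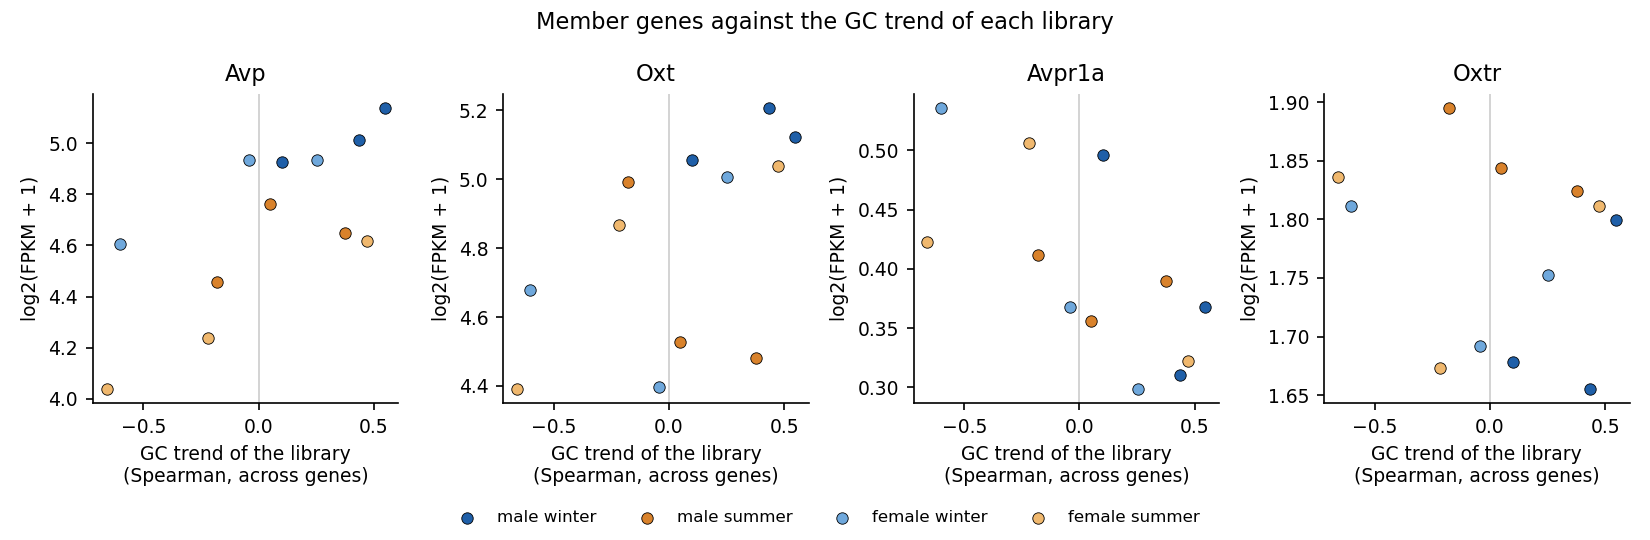
Each member in log2(FPKM + 1) (vertical axes, not starting at 0) against the GC trend of its library (horizontal axis, Spearman correlation across genes, -0.66 to 0.55), with 1 point per library coloured by group. Avp rises with the trend (r = 0.712), and Avpr1a falls (r = -0.675).

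Within groups no pair of members passed the permutation test after adjustment. Of 6 pairs, Avp and Avpr1a had the strongest relation, with r = -0.70 and rho = -0.739 (exact permutation within groups, p = 0.0432 and 0.0278, adjusted over 6 pairs 0.259 and 0.167), and r = -0.767 without the 2 libraries farthest in Avp. It weakened to -0.45 after GC correction. Avp and Oxt gave r = 0.26 and rho = 0.144 (exact permutation, adjusted p = 0.918 and 0.864), r = -0.31 without the 2 farthest libraries and r = -0.29 after GC correction, and no shared movement of the neighbouring genes was detected between libraries of 1 group. The other 4 pairs had r between -0.23 and 0.08 (exact permutation, adjusted p = 0.918 for each).

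The genes whose values were most like Avp over the 12 libraries were Dgkq, a diacylglycerol kinase (Pearson r = 0.948), Kcnh4, a voltage-gated potassium channel (0.946), Hexdc, a hexosaminidase (0.946), Hrh3, the histamine H3 receptor of neurons (0.937), and Plekha7, a junction protein (0.911). As deviations from group means they were Man2b2 (0.975), Gipc1 (0.973), Armc5 (0.973), Slc29a4 (0.971) and Hrh3 (0.968). The 100 most alike genes had a median transcript GC content of 56.6% over the 12 libraries and 58.2% within groups, compared with 49.9% over all 12697 genes ranked. After GC correction this median was 51.5%, and Hrh3 (0.920), Kcnh4 (0.910), Dgkq (0.898) and Hexdc (0.878) were still among the first 5, joined by Vcan, a matrix proteoglycan (0.878).

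Oxt was most like a different set. Over the 12 libraries these were Rnf217 (0.916), Cavin3 (0.912), H2afj (0.904), Cltb, a clathrin light chain (0.882), and Ap2a2, a subunit of the endocytic adaptor (0.867). Within groups they were Fam174b (0.940), Uimc1 (0.932), Syt13 (0.925), the peptide gene Cck (0.923) and Clec18a (0.921). After GC correction the first 5 were Cavin3 (0.871), Cltb (0.869), Hyls1 (0.863), H2afj (0.862) and Lmbr1 (0.831). These correlations describe 12 libraries that share their sequencing and preparation, and the highest of 12697 values are high by selection.

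The genes that make, store and release the peptides, and those that carry the receptor signal, were taken as lists besides the members. None of their tested genes passed an adjusted p of 0.05 in limma for season, where 0.00765% of all tested genes did, or for sex, where 0.0612% did. At an unadjusted p of 0.05, 4.88% of all tested genes passed for season and 11.6% for sex. The median winter minus summer difference over all tested genes was -0.003 in log2(FPKM + 1).

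For maturation and storage, 11 of 11 genes were tested. For season 6 were higher and 5 lower in winter by estimate, with a median of 0.01, a range of -0.05 to 0.20, and none under an unadjusted p of 0.05. Cpe, the carboxypeptidase that trims peptide precursors, stood at 727 FPKM and differed by 0.01 ± 0.05 (SE). Scg5, the chaperone of the convertase Pcsk2, stood at 271 FPKM and differed by -0.004 ± 0.06. For sex, 2 had an unadjusted p under 0.05 upward in females and 1 downward. Pcsk1n, the inhibitor of the convertase Pcsk1, averaged 75.8 FPKM ± 20.8 (SD, n = 6) in females and 110 FPKM ± 15.8 (SD, n = 6) in males (log2 difference -0.57 ± 0.15; limma, adjusted p = 0.341). Scg2, a granule protein, differed by 0.17 ± 0.05 (limma, adjusted p = 0.369). Lnpep, known as oxytocinase because it degrades both peptides, averaged 6.26 FPKM ± 0.85 in females and 4.73 FPKM ± 1.48 in males (n = 6 each), a difference of 0.39 ± 0.17 (limma, adjusted p = 0.42). It was 0.19 without male summer replicate 2, which alone stood at 1.85 FPKM. After GC correction the sex differences were -0.51 ± 0.13 for Pcsk1n, 0.14 ± 0.04 for Scg2 and 0.33 ± 0.16 for Lnpep, whose unadjusted limma p was then 0.0599.

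For release, 4 of 4 genes were tested, with a season median of 0.03 and none under an unadjusted p of 0.05. Cd38, an enzyme needed for oxytocin release in mice, averaged 2.17 FPKM ± 0.13 in females and 1.89 FPKM ± 0.14 in males (n = 6 each; limma, adjusted p = 0.408). Of the 6 regulators of the peptide neurons, 5 were tested, 1 higher and 4 lower in winter by estimate, with a median of -0.01. Pou3f2, a POU factor required for these neurons, averaged 5.49 FPKM ± 0.53 in winter and 6.03 FPKM ± 0.28 in summer (n = 6 each; limma, adjusted p = 0.997, unadjusted 0.049). Creb3l1, a transcription factor that acts on the vasopressin gene in rats, averaged 1.23 FPKM ± 0.16 in females and 1.61 FPKM ± 0.31 in males (n = 6 each; limma, adjusted p = 0.379). For receptor signalling, 9 of 10 genes were tested, with a season median of -0.03 and none under an unadjusted p of 0.05. Rgs4, which damps Gq signalling, differed by 0.13 ± 0.05 between females and males (limma, adjusted p = 0.394). After GC correction the sex differences fell in size to 0.08 ± 0.05 for Cd38, from 0.13, to -0.13 ± 0.08 for Creb3l1, from -0.22, and to 0.08 ± 0.04 for Rgs4. None of these 3 then had an unadjusted limma p under 0.05 (0.176, 0.104 and 0.0525).

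Listed markers of neighbouring cell groups differed little between the seasons. In bulk brain RNA the cells that a transcript came from are not known, so these values do not describe those groups alone. Of 10 markers of the suprachiasmatic nucleus 6 were tested, with a season median of -0.04, and none had an unadjusted p under 0.05. Nms, Prok2, Lhx1 and Six6 did not pass the filter. Vip, the peptide of its light-receiving core, averaged 15.4 FPKM and differed by -0.02 ± 0.06 (SE) between winter and summer. Of 15 hypothalamic markers 8 were tested, 4 higher and 4 lower in winter by estimate, with a median of 0.001 and a range of -0.08 to 0.11. Pmch, the melanin-concentrating hormone gene, averaged 40.2 FPKM and differed by -0.02 ± 0.10. Of the 8 peptides found in the same neurons, 8 were tested, with a season median of -0.03 and 1 under an unadjusted p of 0.05. That was Apln, apelin, which vasopressin neurons contain, at 11.4 FPKM ± 1.21 in winter and 12.9 FPKM ± 0.90 in summer (n = 6 each; limma, adjusted p = 0.997, unadjusted 0.0225). For sex, Gal had a log2 difference of -0.26 ± 0.10 (limma, adjusted p = 0.394) and Cck of -0.19 ± 0.08 (limma, adjusted p = 0.421). After GC correction these were -0.23 ± 0.09 and -0.13 ± 0.08, the latter with an unadjusted limma p of 0.106.

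Markers of other cells and regions were read in the same way. Cldn5, of vessel endothelium, averaged 11.5 FPKM ± 1.57 in winter and 16.1 FPKM ± 3.30 in summer (n = 6 each; log2 difference -0.44 ± 0.12; limma, adjusted p = 0.956, unadjusted 0.00248). Doc2g, of the olfactory bulb, averaged 6.16 FPKM ± 1.21 in winter and 7.72 FPKM ± 0.95 in summer (n = 6 each; limma, adjusted p = 0.997, unadjusted 0.0118). Slc17a7, of cortical excitatory neurons, differed by -0.23 ± 0.06 between females and males (limma, adjusted p = 0.341), and passed at an adjusted p of 0.0202 only without female summer replicate 1, within a range of 0.0202 to 0.685 over the alternatives. After GC correction Cldn5 differed by -0.46 ± 0.12 between winter and summer, and Slc17a7 by -0.18 ± 0.04 between the sexes. The part of these markers in the member differences was not tested.

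**Figure D5:**
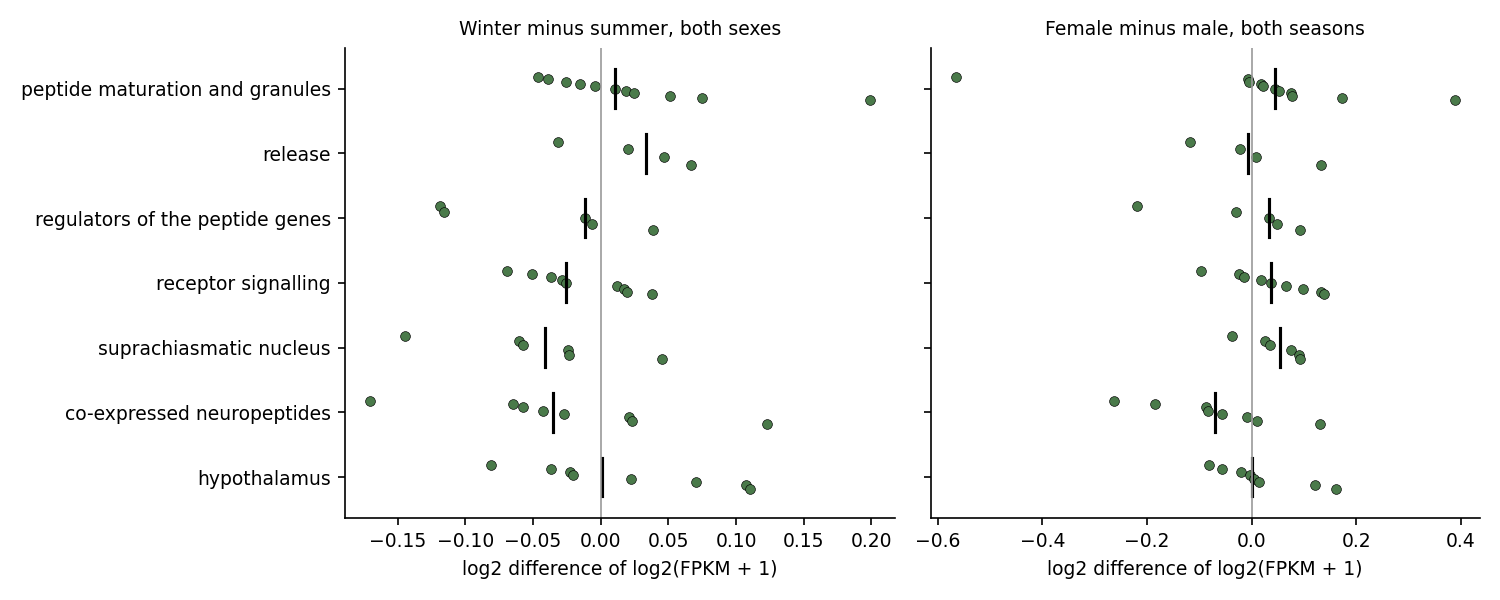
Log2 differences of the tested genes of 7 lists (1 row a list, 1 point a gene, black bar the median) for winter minus summer (left) and female minus male (right). The season medians run from -0.04 to 0.03, and no listed gene passed an adjusted p of 0.05.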

How the data were processed

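RNA of 12 brain samples was poly-A selected and sequenced as strand-specific paired reads, per the labels' protocols. Per the submitters' processing notes, HISAT and RSEM were used with GRCm38.p6; tool versions are not given there. The authors deposited FPKM values of 18962 genes, 1 further line being empty; 25 symbols turned into dates were restored, and 0 sample columns were unmapped. Low values were whole multiples of the same gene's lowest non-zero value for 60.6% of 3658 values (39.4% by rounding width alone). Reads were therefore not recovered and depth is unknown. FPKM sums ran from 358511 to 375041. From these values log2(FPKM + 1) was fitted to 4 group means with limma 3.58.1 (R 4.3.3, trended variance), for genes of at least 1 FPKM in at least 3 libraries, with Benjamini-Hochberg adjustment over 13071 genes. The fit was tested on simulated data. GC correction removed a lowess curve (span 0.3) of each library's deviations on transcript GC content, known for 99% of tested genes. Gene identifiers matched RefSeq for 18836 genes, which gave the coordinates. Correlations within groups were tested by exact permutation, and those over all libraries were given without a test (SciPy 1.17.1). Members, lists and tests were chosen with earlier results of these data known. Genes were named if members, if in a list with an unadjusted p under 0.05, as up to 4 of the best expressed of a list, or as the 5 most like Avp or Oxt. Alternatives changed the pseudocount, filter, scaling, variance prior, block, GC correction and libraries.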

Additional observations from a re-analysis of the deposited data

Results flagged for a closer look

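Of 68 sets of 6 libraries examined for the members and named genes (males, females, winter or summer), 1 held a library far from the others, where chance gives about 1 in 20. Lnpep was 1.85 FPKM in male summer replicate 2, and the other 5 male libraries lay between 4.86 and 6.03 FPKM. Avp in that library was 24.1 FPKM and Oxt 21.3 FPKM, the middle and the lowest value of its group.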

How the results depend on the processing

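The season contrast over all genes called 1 gene, 2 with GC correction and 4 with GC correction and replicate block, and 1 to 3 as each library was left out (2 without male winter replicate 2 and 3 without male summer replicate 1). The sex contrast called 8 genes, 13 with GC correction and replicate block, and 8 to 136 as each library was left out, 136 without female summer replicate 1. The Avp season difference kept its sign in every alternative run, from 0.40 to 0.54 as each library was left out. That of Oxt over both sexes was 0.10 to 0.28 and its female one -0.26 to 0.08. The Avpr1a sex difference turned to -0.015 without both libraries of strong GC trend and ran from -0.0136 to 0.0464 as each library was left out, and that of Oxtr from -0.0354 to 0.0052. Among correlations within groups, GC correction turned Avp and Oxt to -0.29, Avp and Oxtr to 0.0023, and Avpr1a and Oxtr to 0.0808, and uncentred values turned Oxt and Oxtr to -0.28. As each library was left out, r ran from -0.12 to 0.56 for Avp and Oxt, -0.41 to 0.14 for Avp and Oxtr, -0.35 to 0.0181 for Oxt and Avpr1a, -0.12 to 0.43 for Oxt and Oxtr, and -0.40 to 0.33 for Avpr1a and Oxtr. Without removal of the group means Oxt and Oxtr had r = -0.28, a value that includes season and sex differences. The causes of these changes were not tested. No clear pairing by replicate number was seen, though groups of 3 show little of it. Same-numbered libraries correlated by -0.23 to 0.24 (median 0.04), and 6 of 18 pairs passed 0.1. Differently numbered ones correlated by -0.32 to 0.34 (median -0.01), and 10 of 36 pairs passed 0.1. Of 12 libraries, 4 correlated best with their own number. Whether the number marks a batch was not tested. With the replicate block the season contrast called 1 gene and the sex contrast 12, and the Avp season difference was 0.46 ± 0.10. Correlations with the GC trend, overlap and likeness after GC correction, and the alternatives within each sex were chosen after seeing the data. Depth is unknown, which limits what can be said of Avpr1a.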
